A study of Mus musculus with 5 samples.

Results

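The 10 imprinted genes followed here are Mest, Nnat, Peg3, Plagl1, Dlk1 and Igf2, of which mice mainly use the paternal copy, and Meg3, H19, Cdkn1c and Grb10, of which most tissues mainly use the maternal copy. They were taken by name from a count table of 78334 gene identifiers, all 10 were found in it, and 9 had enough counts to be tested, Igf2 being the exception. Messenger RNA of visceral fat from male C57BL/6 mice was sequenced in 5 libraries. The resveratrol group (2 libraries) ate a high-fat diet with 60% of its energy as fat and was then given the plant polyphenol resveratrol, 2.25 mg/kg a day through a gastric tube for 28 days. The obesity group (2 libraries) ate the same diet for 8 weeks and then got vehicle, and the control group (1 library) ate standard chow and got vehicle. All mice started at 8 weeks of age and were 16 weeks old when dosing began. The labels do not state that each library is a mouse of its own. A p-value here therefore reflects only how these libraries vary, and that variation may be technical.

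Imprinted genes are read from one parental copy, set by DNA methylation laid down in the germ line, and many of them control growth of the embryo, placenta and fat. Mest, which encodes a protein of the alpha/beta hydrolase fold in the endoplasmic reticulum, is known in mice for a level in white fat that tracks the expansion of adipocytes under a rich diet. Dlk1, also called Pref-1, encodes a surface protein that holds preadipocytes back from becoming adipocytes. The count table does not part the parental copies, so all levels are sums over both.

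The promoters of Mest, Nnat, Peg3 and Meg3 are shown because these are the 4 members with the highest mean CPM. They are RefSeq windows on GRCm38.p6 from 250 bases before to 50 bases after a gene's start, 5′ to 3′, and where a gene has several windows the one with the most CpG pairs was taken. Capitals mark, on either strand, the cyclic AMP response element TGACGTCA, the TATA box TATAAA and the GC box GGGCGG.
Mest promoter, chr6:30737800-30738099, plus strand: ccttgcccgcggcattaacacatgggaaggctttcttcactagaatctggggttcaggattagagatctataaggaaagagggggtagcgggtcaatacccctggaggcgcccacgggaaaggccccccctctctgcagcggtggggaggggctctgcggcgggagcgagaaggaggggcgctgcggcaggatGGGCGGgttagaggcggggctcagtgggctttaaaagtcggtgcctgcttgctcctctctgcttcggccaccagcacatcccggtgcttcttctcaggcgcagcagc
Nnat promoter, chr2:157559828-157560127, plus strand: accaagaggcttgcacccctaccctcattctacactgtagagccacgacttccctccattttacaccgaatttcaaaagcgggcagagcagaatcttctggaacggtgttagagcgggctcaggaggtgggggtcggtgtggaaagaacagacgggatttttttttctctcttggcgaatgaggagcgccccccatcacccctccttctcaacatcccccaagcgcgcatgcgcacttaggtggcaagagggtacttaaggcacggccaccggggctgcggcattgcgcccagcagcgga
Peg3 promoter, chr7:6730370-6730669, minus strand: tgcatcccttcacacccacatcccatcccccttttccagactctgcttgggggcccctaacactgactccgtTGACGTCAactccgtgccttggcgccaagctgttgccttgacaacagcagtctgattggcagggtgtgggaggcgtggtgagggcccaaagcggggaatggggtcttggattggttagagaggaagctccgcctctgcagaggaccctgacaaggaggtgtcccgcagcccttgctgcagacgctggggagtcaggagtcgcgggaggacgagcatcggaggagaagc
Meg3 promoter, chr12:109540746-109541045, plus strand: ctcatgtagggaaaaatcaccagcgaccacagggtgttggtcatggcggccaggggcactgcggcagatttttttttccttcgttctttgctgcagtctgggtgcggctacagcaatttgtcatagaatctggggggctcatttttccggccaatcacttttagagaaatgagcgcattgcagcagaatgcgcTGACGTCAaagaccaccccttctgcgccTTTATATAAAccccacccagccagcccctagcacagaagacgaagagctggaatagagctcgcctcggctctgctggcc

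Of the 10 genes 8 had a window, with 9 CpG pairs in that of Dlk1 and 45 in that of Grb10, against a median of 8 over 27025 genes. The Mest and Nnat windows each held 17 CpG pairs, and the Peg3 and Meg3 windows each held 13. The cyclic AMP element stood in the Peg3 and Meg3 windows, 178 and 57 bases before the start, and in none of the other 6. It is present in 1.79% of 32851 windows of that length. Meg3 alone among the 8 held the TATA box, which was found in 13.6% of windows. There it was matched on both strands, in overlapping letters. The GC box, present in 35.7% of windows, was found in the windows of Mest, Igf2, Plagl1 and Grb10. A match describes letters in a window and says nothing of a factor bound there.

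Total counts ran from 19540961 to 27026597 per library. Levels are CPM, counts relative to the library total, after scaling by the trimmed mean of M-values (TMM), ± is an SD over 2 libraries or, where so named, a standard error (SE), and intervals are exact 95% Poisson intervals that cover counting error alone. Some libraries stood apart. The 10 adipocyte markers, Adipoq and Plin1 among them, summed to 6862 and 32584 CPM in resveratrol libraries 1 and 2, to 31492 and 34086 CPM in obesity libraries 1 and 2, and to 444 CPM in the control library, with none at a count of 0 anywhere. The 12 epididymal markers summed to 3401 and 0.350 CPM after resveratrol (with 3 and 10 of them at a count of 0), to 18.3 and 0.238 CPM in the obesity pair (with 2 and 10 at 0) and to 63510 CPM in control (with 0 at 0). In resveratrol library 1 the marker Crisp1 alone gave 3397 CPM, and every other epididymal marker was at 2.32 CPM or less. The 8 smooth muscle and pericyte markers summed to 44177 CPM in resveratrol library 1 and to between 531 and 2348 CPM elsewhere. The 6 macrophage markers summed to 291 and 2139 CPM in the resveratrol libraries, 1999 and 1806 CPM in the obesity libraries and 85.8 CPM in control. The 10 progenitor and fibroblast markers summed to 1319 and 2545 CPM, 2489 and 1925 CPM, and 648 CPM in the same order. Directions differed within that list. In control Col1a1 stood at 6.15% of its obesity mean, and Pdgfra and Dpp4 at 240% and 926%. The mesothelial, endothelial, skeletal muscle, germ cell, nerve and liver lists each summed to at most 1085 CPM in any library. In such bulk tissue, fewer cells of a type and less RNA per cell cannot be told apart.

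Among the genes read from the paternal copy, Mest, Nnat and Peg3 were abundant in both obesity libraries and in resveratrol library 2 and far lower in the control library. Mest (ENSMUSG00000051855) had 18.3 CPM in resveratrol library 1 and 652 CPM in resveratrol library 2, against 475 and 681 CPM in obesity libraries 1 and 2 and 3.91 CPM (3.22 to 4.70) in the control library. Resveratrol library 2 thus lay between the obesity libraries, and resveratrol library 1 stood at 3.17% of the obesity mean. Nnat (ENSMUSG00000067786), which encodes the small membrane proteolipid neuronatin, was at 321 and 1645 CPM after resveratrol, 699 and 985 CPM in the obesity pair and 16.7 CPM (15.2 to 18.3) in control. Its resveratrol libraries were the lowest and the highest of the 4 on the high-fat diet. Peg3 (ENSMUSG00000002265), which encodes a zinc finger protein, was at 18.2 and 248 CPM after resveratrol, 98.3 and 168 CPM in the obesity pair and 6.52 CPM (5.62 to 7.53) in control. Its resveratrol libraries too lay on either side of the obesity pair.

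Plagl1 (ENSMUSG00000019817), also called Zac1, encodes a zinc finger transcription factor that in mice acts on other imprinted genes. It was at 21.2 and 75.5 CPM after resveratrol, 36.7 and 57.7 CPM in the obesity pair and 9.59 CPM in control, the same order of libraries as Nnat and Peg3. Dlk1 (ENSMUSG00000040856) was low throughout, at 3.59 and 2.26 CPM after resveratrol, 1.04 and 1.00 CPM in the obesity pair and 1.36 CPM (0.967 to 1.86) in control. Both resveratrol libraries lay above all the others, on 79 and 58 counts against 20 and 21 in obesity and 39 in control. Igf2 (ENSMUSG00000048583), the gene for insulin-like growth factor II, had 6 and 7 counts with resveratrol, 4 and 5 in obesity and 6 in control. At 0.209 to 0.273 CPM it was too low for any difference to be detectable at this depth. In the GENCODE M21 annotation Igf2 shares 3596 exon bases with Gm49394 on the same strand, which had 0 counts in all 5 libraries. How reads in shared bases were counted is not given in the sources used here, so the Igf2 level is uncertain.

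**Figure D1:**
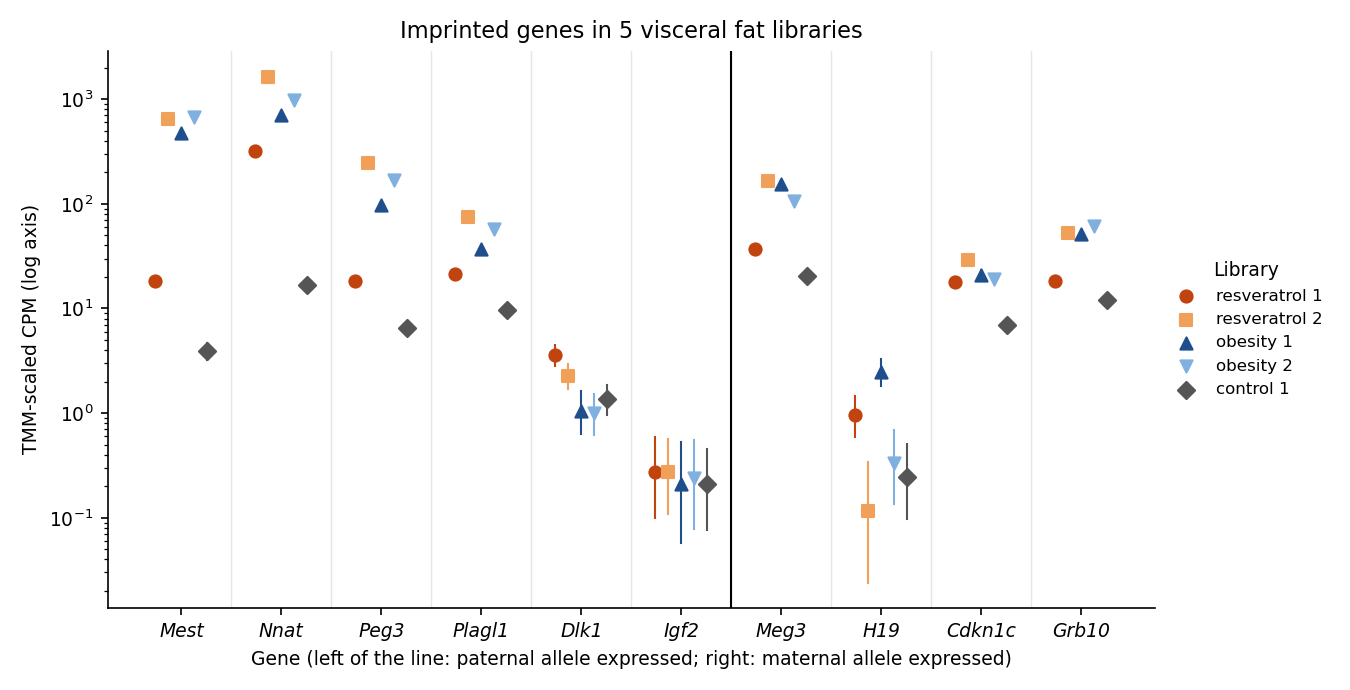
TMM-scaled CPM of the 10 imprinted genes in each library on a log axis, with exact 95% Poisson intervals as bars (smaller than the symbol where not seen). Mest spans 3.91 to 681 CPM, and for 7 of the genes the control library is the lowest symbol, while Igf2 stays between 0.209 and 0.273 CPM.

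Of the genes read mainly from the maternal copy, Meg3 and Grb10 were also lower in resveratrol library 1 and in control. Meg3 (ENSMUSG00000021268), a long noncoding RNA gene that shares 1228 exon bases with Gm26906 on the other strand in GENCODE M21, was at 37.1 and 165 CPM after resveratrol, 153 and 107 CPM in the obesity pair and 20.6 CPM in control. Grb10 (ENSMUSG00000020176) encodes an adaptor that dampens signalling by the insulin and insulin-like growth factor receptors. It was at 18.2 and 52.7 CPM after resveratrol, 51.3 and 61.4 CPM in the obesity pair and 12.0 CPM in control. Cdkn1c (ENSMUSG00000037664), the gene for the cell cycle inhibitor p57, varied least of the 7 abundant genes. It was at 17.9 and 29.1 CPM after resveratrol, 21.0 and 19.2 CPM in the obesity pair and 7.01 CPM (6.07 to 8.05) in control, with overlap between the resveratrol and obesity libraries. H19 (ENSMUSG00000000031), a noncoding RNA gene next to Igf2, was at 0.954 and 0.117 CPM after resveratrol, 2.45 and 0.333 CPM in the obesity pair and 0.244 CPM in control. These H19 levels rest on 21 and 3 counts, 47 and 7 counts, and 7 counts, so that the intervals of resveratrol library 1 (0.591 to 1.46 CPM) and obesity library 1 (1.80 to 3.26 CPM) stood clear of that of control (0.0981 to 0.503 CPM) and those of the other libraries did not.

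Per kilobase of exon in GENCODE M21, which is made for an older build than the authors', Nnat was the highest of the 10 in every library. In obesity it averaged 460 CPM per kilobase and Mest 146 CPM per kilobase, with no overlap between them. Peg3, Cdkn1c, Meg3, Grb10 and Plagl1 followed at 9.99, 9.87, 7.19, 6.20 and 6.04 CPM per kilobase, and in that order each overlapped the next across the obesity libraries except that Cdkn1c lay above Meg3 in both. H19 at 0.566 and Dlk1 at 0.181 CPM per kilobase overlapped as well, and Igf2 was last at 0.0390 CPM per kilobase. In resveratrol library 1 Mest, at 4.64 CPM per kilobase, lay below Nnat at 175 and Cdkn1c at 8.80 CPM per kilobase. In control Mest, at 0.990 CPM per kilobase, lay below Nnat at 9.13, Cdkn1c at 3.44, Grb10, Plagl1 and Meg3.

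The first comparison set the high-fat diet against chow. Mest, Nnat and Peg3 had the largest differences of the 9 tested members, Plagl1, Meg3, Grb10 and Cdkn1c smaller ones, and Dlk1 was slightly lower in obesity, none of them past the threshold. Mest averaged 578 ± 146 CPM in the obesity pair (SD, n = 2) and 3.91 CPM in control, with a log2 difference of 7.21 (SE 2.81, edgeR quasi-likelihood adjusted p = 0.216). For Nnat the levels were 842 ± 202 and 16.7 CPM and the log2 difference 5.65 (SE 1.5, edgeR adjusted p = 0.182), the smallest adjusted p of the 9. For Peg3 they were 133 ± 49.2 and 6.52 CPM, with a log2 difference of 4.35 (SE 1.91, edgeR adjusted p = 0.237). Meg3, Plagl1 and Grb10 differed by 2.66 (SE 1.09), 2.30 (SE 0.954) and 2.24 (SE 0.785) on the log2 scale, and Cdkn1c by 1.52 (SE 0.465). H19 differed by 2.48 with an SE of 2.04, which became 0.46 without obesity library 1, and Dlk1 by -0.41 with an SE of 0.742.

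With edgeR 0 of the 9 passed an adjusted p of 0.05, as did 0 of all 24779 genes tested (0%). At an unadjusted p under 0.05, Nnat, Cdkn1c and Grb10 were higher, 3 of 9, beside 12.6% of all genes tested that were higher, 11.7% that were lower and 24.3% in either direction. Both obesity libraries lay above control for 8 of the 9 and below it for Dlk1, beside 40.8% and 48.6% of all genes tested. H19 is among the 8 on 7 counts each in obesity library 2 and control. A gene could be tested on its counts in 1 library alone. In control 22955 genes had 10 or more counts, against 18008 and 17929 in the obesity pair. The median log2 difference was 2.48 over the 9 and -0.10 over all genes tested. DESeq2 called 5 of them higher (Mest, Nnat, Peg3, Meg3 and Grb10), beside 12.8% higher, 8.8% lower and 21.6% in either direction of the 20935 genes it gave an adjusted p. In the edgeR fit all 5 libraries share 1 estimate of the spread. With either resveratrol library left out, the log2 difference of Mest was 7.22 and that of Nnat 5.67. Those of H19 and Dlk1 were 2.49 and -0.40. The adipocyte markers stood in control at a median of 1.06% of their obesity mean (0.328% to 6.23%), where Mest stood at 0.676%, Nnat at 1.98%, Peg3 at 4.90% and the other tested members at 15.8% or more. The part of the low adipocyte and high epididymal marker levels of the control library in these differences was not tested, and diet and the tissue sampled cannot be told apart with 1 control library.

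**Figure D2:**
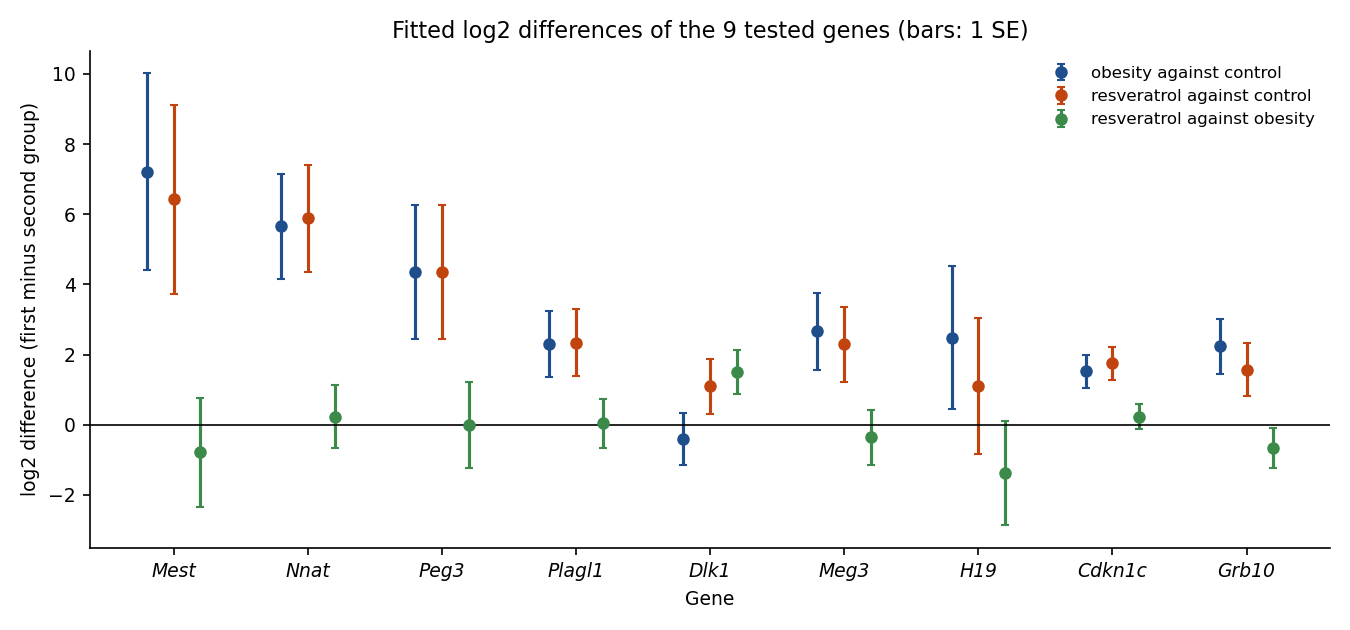
Fitted log2 differences of the 9 tested genes in the 3 comparisons, first minus second group, with bars of 1 SE. The obesity against control values run from -0.41 for Dlk1 to 7.21 for Mest, and in the resveratrol against obesity comparison only the bars of Dlk1 and Grb10 leave 0.

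The second comparison asked what resveratrol did on the high-fat diet. Dlk1 was the only tested member whose resveratrol libraries both lay on one side of both obesity libraries, and for Mest, Peg3, Nnat, Plagl1, Meg3, Grb10, Cdkn1c and H19 the groups overlapped. Dlk1 averaged 2.92 ± 0.942 CPM after resveratrol and 1.02 ± 0.0309 CPM in the obesity pair (SD, n = 2 each), a log2 difference of 1.51 (SE 0.625, edgeR adjusted p = 0.899). Mest averaged 335 ± 448 CPM after resveratrol and 578 ± 146 CPM in the obesity pair, a log2 difference of -0.79 (SE 1.55, edgeR adjusted p = 0.945). Grb10 was at 35.5 ± 24.4 and 56.3 ± 7.09 CPM, with a log2 difference of -0.67 (SE 0.574, edgeR adjusted p = 0.899). Cdkn1c was at 23.5 ± 7.89 and 20.1 ± 1.27 CPM. The log2 differences of Nnat, Peg3, Plagl1, Cdkn1c and Meg3 lay between -0.36 and 0.22, each smaller than its SE, and that of H19 was -1.38 (SE 1.49).

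With edgeR 0 of the 9 members passed and 0 of all genes tested (0%). At an unadjusted p under 0.05 there were 0 members, beside 1.92% of all genes higher, 0.428% lower and 2.34% in either direction. DESeq2 called 0 members, beside 1.16% higher, 0.117% lower and 1.28% in either direction of the 17092 genes it gave an adjusted p. The 1 member not overlapping, Dlk1, stood beside 16.9% of all genes that lay wholly higher and 16.7% that lay wholly lower, a share near the background. The spread within the resveratrol group was wide. Resveratrol library 2 was 35.6 times resveratrol library 1 for Mest, 13.6 times for Peg3, 5.13 times for Nnat, 4.44 times for Meg3, 3.56 times for Plagl1, 2.90 times for Grb10 and 1.62 times for Cdkn1c. Leaving out resveratrol library 2 left resveratrol library 1 alone in its group. The log2 difference was then -4.97 for Mest, -2.86 for Peg3, -1.80 for Meg3, -1.62 for Grb10 and -1.39 for Nnat. Of the tested members only Dlk1 was positive in that fit, at 1.82. Without resveratrol library 1 the log2 difference of Mest was 0.19, that of Nnat 0.98 and that of Grb10 -0.08.

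Relative to the obesity mean, resveratrol library 1 held 3.17% of Mest, 13.7% of Peg3, 28.5% of Meg3, 32.2% of Grb10, 38.1% of Nnat, 44.9% of Plagl1 and 89.1% of Cdkn1c. In the same library the 10 adipocyte markers had a median of 16.8% (9.39% to 94.4%) and the 6 macrophage markers one of 16.2% (9.41% to 28.4%). Over the 15877 tested genes that averaged 1 CPM or more in obesity the median was 92.1%, and 0.630% of these genes stood as low there as Mest, against 4.17% for Peg3 and 16.0% for Nnat. Resveratrol library 2 held 113% of Mest, 186% of Peg3, 195% of Nnat, 160% of Plagl1, 145% of Cdkn1c, 127% of Meg3 and 93.6% of Grb10, with a median of 103% for the adipocyte markers and 97.8% for all these genes. There 97.0% of genes stood at or below the ratio of Nnat and 96.3% at or below that of Peg3. The medians of other marker lists were raised in that library too. The median was 172% (135% to 218%) for endothelial markers. It was 139% (74.2% to 529%) for progenitor and fibroblast markers and 842% (62.8% to 2667%) for mesothelial markers. The progenitor and mesothelial lists thus each held markers below their obesity mean. The median was 101% for macrophage markers and 86.5% for smooth muscle and pericyte markers. Per 1000 CPM of summed adipocyte markers, a ratio added after the levels were seen, Mest was at 2.67 and 20.0 CPM after resveratrol, 15.1 and 20.0 CPM in the obesity pair and 8.80 CPM in control. On that ratio resveratrol library 1 was the lowest of the 5 for Mest. For Nnat the ratio was at 46.7 and 50.5 CPM, 22.2 and 28.9 CPM, and 37.7 CPM, so that both resveratrol libraries lay above obesity and control. For the other 8 genes control was the highest of the 5. Grb10, for example, was at 2.65 and 1.62 CPM after resveratrol, 1.63 and 1.80 CPM in the obesity pair and 27.0 CPM in control, and Meg3 at 5.41 and 5.06 CPM, 4.87 and 3.13 CPM, and 46.4 CPM. On this ratio control lay above both obesity libraries for 9 of the 10 genes, all but Mest. In CPM control lay below both for Nnat, Peg3, Plagl1, Meg3, Grb10, Cdkn1c and H19. This turn follows largely from the divisor, which was 444 CPM for control but 31492 and 34086 CPM for obesity libraries 1 and 2. Such a divisor raises any gene not about as low in control as the adipocyte markers. Relative to the obesity mean, 2.96% of the 15877 genes stood as low in control as Mest, which did not turn. For Nnat, which did turn, that share was 3.89%. The share of all genes that lay above both obesity libraries on this ratio was not computed. The count of 9 is therefore not read as setting these genes apart. The part of the smooth muscle markers in the levels of resveratrol library 1 was not tested.

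**Figure D3:**
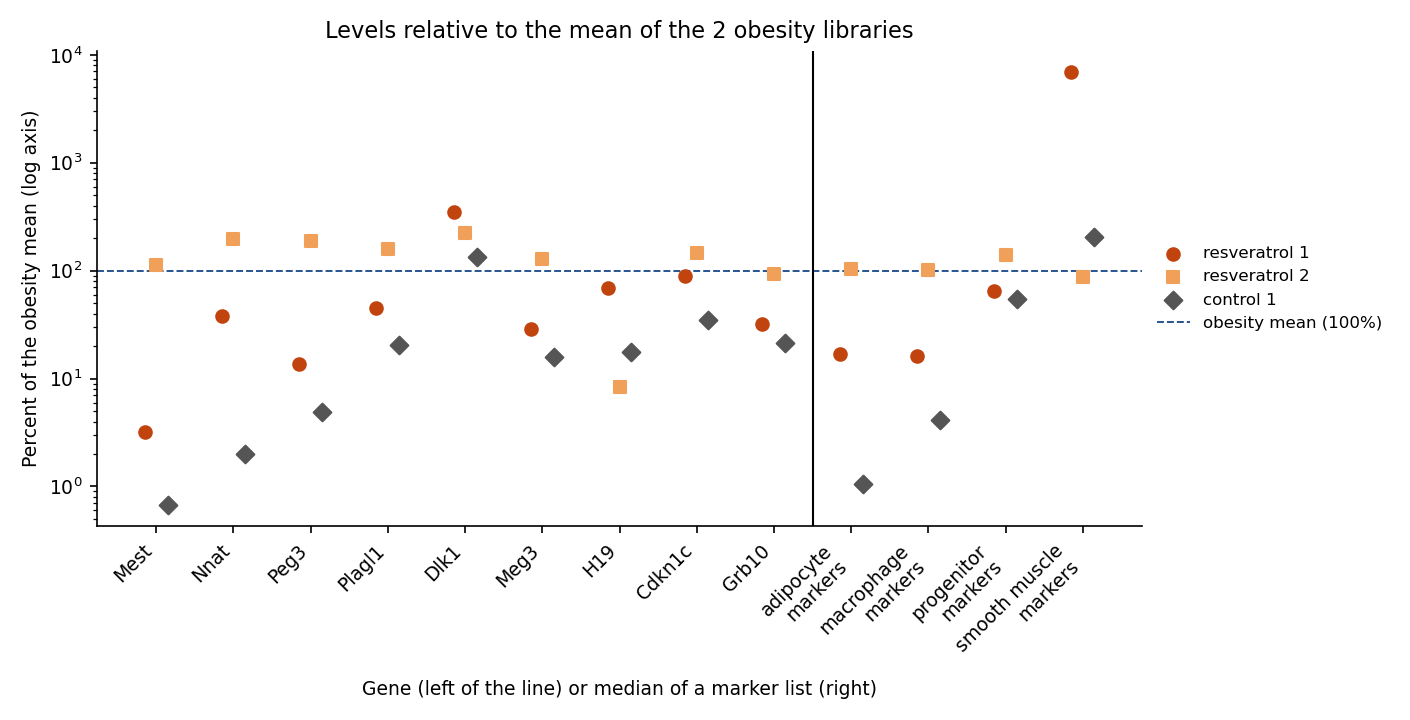
Level in the resveratrol libraries and the control library as a percent of the obesity mean (log axis), for the 9 genes that averaged 1 CPM or more in obesity and, right of the line, for the median of 4 marker lists. In resveratrol library 1 Mest (3.17%) lies below the adipocyte marker median (16.8%) and Cdkn1c (89.1%) well above it. The adipocyte markers, drawn as a median only, ranged from 9.39% to 94.4% there, so Mest lies below their range. Cdkn1c lies within that range only because of Cfd at 94.4%, the next highest marker being Retn at 35.1%.

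The third comparison set the resveratrol group against the chow control, and it shares its libraries with the other comparisons. Nnat and Cdkn1c had the smallest p. Nnat averaged 983 ± 937 CPM after resveratrol (SD, n = 2) and 16.7 CPM in control, with a log2 difference of 5.88 (SE 1.52, edgeR adjusted p = 0.238). Cdkn1c averaged 23.5 ± 7.89 and 7.01 CPM, with a log2 difference of 1.75 (SE 0.471, edgeR adjusted p = 0.239). Mest differed by 6.42 (SE 2.70) and Peg3 by 4.35 (SE 1.91) on the log2 scale. With edgeR 0 members passed and 0 of all genes (0%). At an unadjusted p under 0.05 there were 2 members higher, Nnat and Cdkn1c, beside 10.5% of all genes higher, 8.05% lower and 18.5% in either direction. DESeq2 called 4 (Mest, Peg3, Nnat and Cdkn1c), beside 10.3% higher, 5.17% lower and 15.4% in either direction of 19975 genes. Both resveratrol libraries lay above control for 8 of the 9, all but H19, and below it for 0, beside 37.7% and 41% of all genes. Leaving out 1 library at a time moved the log2 difference of Mest from 2.25 to 7.41 and that of Peg3 from 1.5 to 5.27. Without resveratrol library 2 the values were 2.25 for Mest, 1.5 for Peg3, 1.17 for Plagl1, 0.87 for Meg3 and 0.63 for Grb10. With all libraries these were 6.42, 4.35, 2.33, 2.30 and 1.57.

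Imprinted genes lie in clusters, and the listed imprinted genes within 1000 kb of a member were taken by position after values had been seen. Next to Meg3, the noncoding RNA gene Rian was at 5.77 and 35.4 CPM after resveratrol, 49.4 and 37.6 CPM in the obesity pair and 3.00 CPM in control. Mirg, another noncoding RNA gene of that cluster, was at 0.636 and 2.33 CPM, 4.43 and 2.38 CPM, and 0.349 CPM. Meg3, Rian and Mirg were thus all low in resveratrol library 1 and in control. Dio3, at the far end of the cluster, encodes the deiodinase that inactivates thyroid hormone. It was at 2.54 and 1.44 CPM after resveratrol, 0.261 and 0.333 CPM in the obesity pair and 2.58 CPM in control, above obesity in both resveratrol libraries as Dlk1 was. Its log2 difference between resveratrol and obesity was 2.72 (SE 0.732, edgeR adjusted p = 0.899).

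Beside Mest, Klf14, a transcription factor gene, was at 1.41 and 28.6 CPM after resveratrol, 23.2 and 24.9 CPM in the obesity pair and 0.802 CPM in control. Copg2, whose product is a coat protein of transport vesicles, was at 62.5 and 104 CPM, 104 and 125 CPM, and 57.2 CPM. Its range was narrow beside that of Mest, although the genes share 912 exon bases on opposite strands in GENCODE M21 and the strand setting of the counting is not given in the sources used here. Beside Peg3, Zim1, a zinc finger gene, was at 0.50 and 6.53 CPM after resveratrol, 10.7 and 12.3 CPM in the obesity pair and 1.19 CPM in control. Blcap, which holds Nnat within its bounds on the other strand with no exon bases in common, was at 49.8 and 122 CPM, 114 and 128 CPM, and 27.5 CPM. Nnat spanned more than Blcap, with resveratrol library 2 at 195% of the obesity mean. Around Cdkn1c, the antisense RNA gene Kcnq1ot1, which lies within Kcnq1, was at 9.13 and 6.03 CPM after resveratrol, 7.30 and 8.57 CPM in the obesity pair and 11.9 CPM in control. The exon bases shared by Kcnq1ot1 and Kcnq1 were not measured and the strand setting is not given, so whether their reads mix is unknown. Phlda2, a growth-limiting gene of the placenta, had 5 and 0 counts with resveratrol, 5 and 0 in obesity and 244 in control.

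**Figure D4:**
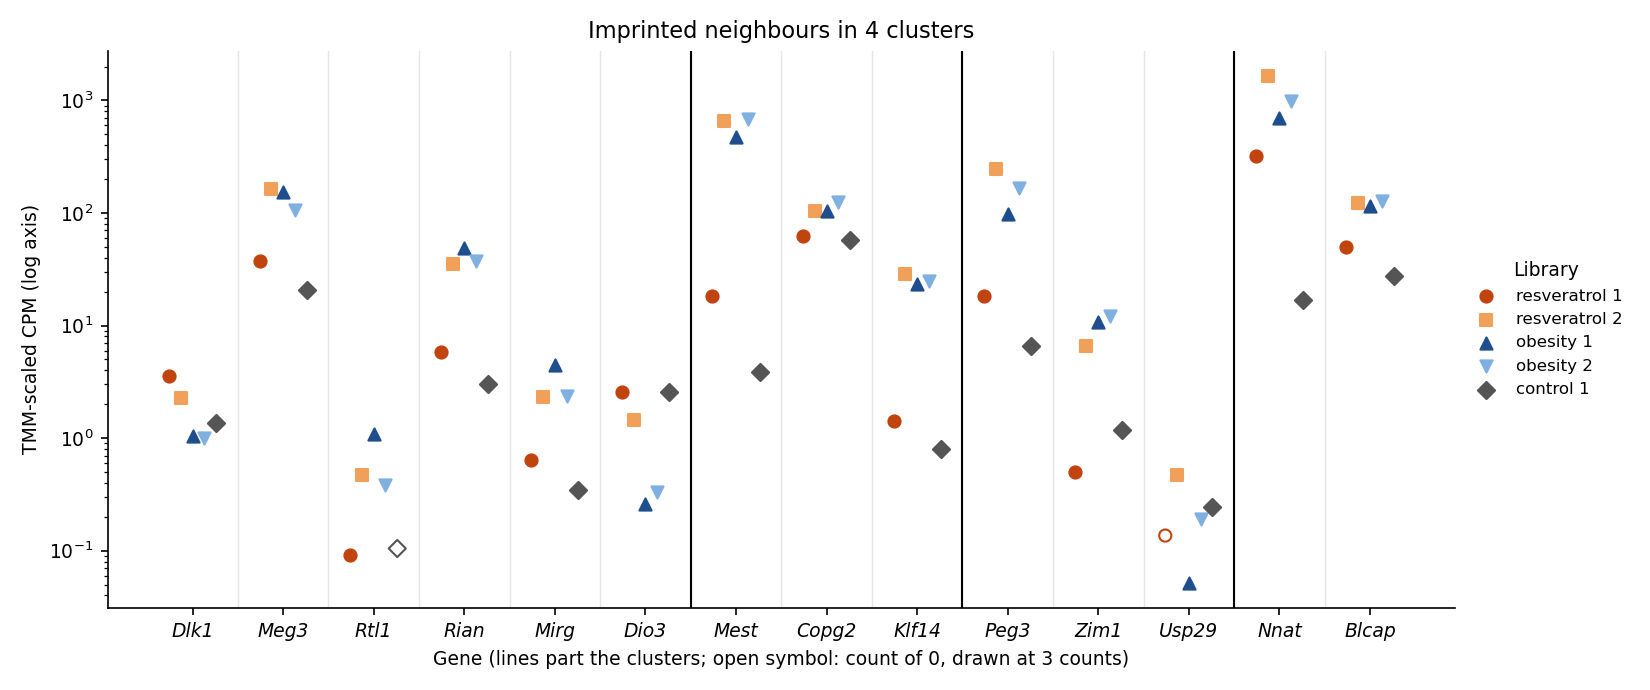
TMM-scaled CPM (log axis) of members and their listed imprinted neighbours in 4 clusters, by library, with an open symbol at the level of 3 counts where the count was 0. Meg3, Rian and Mirg share the low symbols of resveratrol library 1 and control, and Dlk1 and Dio3 have both resveratrol libraries above both obesity libraries.

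Of 53 further imprinted genes listed, 52 were matched by symbol (all but Zrsr1) and 45 tested. In obesity against control 0 passed in edgeR, where 12 were higher and 7 lower at an unadjusted p under 0.05, beside 12.6% and 11.7% of all genes tested. The median log2 difference was 0.57. The 3 higher with the smallest p were Slc22a3, an organic cation transporter gene, Igf2r, the gene for the receptor that clears insulin-like growth factor II, and Sgce, the epsilon-sarcoglycan gene. Slc22a3 was at 72.2 ± 20.3 CPM in the obesity pair and 1.12 CPM in control, Igf2r at 219 ± 0.645 and 26.6 CPM, and Sgce at 56.3 ± 6.32 and 12.5 CPM. Their log2 differences were 6.01 (SE 0.644), 3.04 (SE 0.374) and 2.17 (SE 0.311), each with an edgeR adjusted p of 0.160. In resveratrol library 1 these 3 genes were at 51.0, 202 and 69.5 CPM. Igf2r overlaps the antisense RNA gene Airn. Airn was at 14.1 and 8.13 CPM after resveratrol, 9.49 and 9.38 CPM in the obesity pair and 4.39 CPM in control. The exon bases shared by Airn and Igf2r were not measured either, so whether their reads mix is also unknown. The 3 lower with the smallest p were Rasgrf1, Ddc and Dio3. Rasgrf1, the gene for an activator of Ras, was at 0.788 ± 0.509 CPM in the obesity pair and 102 CPM in control, and Ddc, next to Grb10 and the gene for aromatic amino acid decarboxylase, at 0.345 ± 0.119 and 6.14 CPM.

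In resveratrol against obesity 1 of the 45, Dio3, was higher at an unadjusted p under 0.05 and 0 lower, beside 1.92% and 0.428% of all genes, and 0 passed adjustment. The next higher by p, neither under 0.05 unadjusted, were Rasgrf1 at 4.18 and 1.09 CPM after resveratrol against 1.15 and 0.428 CPM in the obesity pair, and the transporter gene Slc22a18 at 9.13 and 9.41 against 6.47 and 5.24 CPM. The lower values with the smallest p, none under 0.05 unadjusted, were those of the neighbours Zim1, Mirg and Copg2 given above, with log2 differences of -1.70 (SE 1.23), -1.19 (SE 0.895) and -0.46 (SE 0.351). In resveratrol against control 8 were higher and 5 lower at an unadjusted p under 0.05, beside 10.5% and 8.05% of all genes, and 0 passed adjustment. Slc22a3, Sgce and Igf2r again had the smallest p of those higher, and Rasgrf1, Ddc and Kcnq1 of those lower. Kcnq1, a potassium channel gene beside Cdkn1c, was at 1.5 and 5.02 CPM after resveratrol and 23.3 CPM in control.

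The insulin-like growth factor pathway, in which Igf2, Igf2r and Grb10 act, had 19 of 20 listed genes tested. Where Igf2 had 4 to 7 counts, Igf1, the gene for the other ligand, was at 52.1 and 185 CPM after resveratrol, 221 and 206 CPM in the obesity pair and 17.8 CPM in control. In obesity against control 5 of the 19 were higher and 2 lower at an unadjusted p under 0.05, beside 12.6% and 11.7% of all genes tested, and 0 passed adjustment in edgeR. The 3 higher with the smallest p were Igf2bp2, Irs1 and Igfals. Igf2bp2, which encodes a protein that binds mRNAs including that of Igf2, was at 26.8 ± 1.56 CPM in the obesity pair and 0.593 CPM in control (log2 difference 5.49, SE 0.915). Irs1, the gene for the docking protein of the insulin receptor, was at 38.9 ± 6.39 and 7.04 CPM. Igfals, the gene for the acid-labile subunit that holds growth factors in the blood, was at 90.4 ± 21.9 CPM in the obesity pair and at a count of 0 in control, at least 864-fold higher when the control library is set to a floor of 3 counts. The lower ones with the smallest p were Igf1r and Igfbp3, followed by Pappa2, which did not pass that unadjusted threshold. Igf1r, the gene for the signalling receptor of both ligands, was at 22.2 ± 3.02 CPM in the obesity pair and 228 CPM in control, with a log2 difference of -3.36 (SE 0.502, edgeR adjusted p = 0.160). Igfbp3, a binding protein gene, was at 25.8 ± 6.81 and 61.2 CPM, and Pappa2, which encodes a protease that cuts binding proteins, at 0.102 ± 0.0770 and 2.65 CPM.

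In resveratrol against obesity 2 of the 19 pathway genes, Pappa2 and the binding protein gene Igfbp6, were higher at an unadjusted p under 0.05 and 0 lower, beside 1.92% and 0.428% of all genes, and 0 passed adjustment. Igfbp6 was at 135 and 189 CPM after resveratrol and 72.5 and 39.0 CPM in the obesity pair, a log2 difference of 1.54 (SE 0.424, edgeR adjusted p = 0.899). Pappa2 was at 17.2 and 1.40 CPM after resveratrol against 0.157 and 0.0476 CPM in the obesity pair, and Igfbp3 at 40.9 and 44.2 against 30.6 and 20.9 CPM. Igfbp3 did not pass that unadjusted threshold. The lower values with the smallest p, none of which passed it, were those of Igf2bp2, Igf1 and Grb14, Igf2bp2 being at 7.45 and 19.5 CPM after resveratrol and 27.9 and 25.7 CPM in the obesity pair. Grb14, which encodes an adaptor related to Grb10, was at 20.1 and 8.83 CPM after resveratrol and 20.6 and 17.5 CPM in the obesity pair, so these groups overlapped. In resveratrol against control 7 were higher and 1 lower at an unadjusted p under 0.05, beside 10.5% and 8.05% of all genes, and 0 passed adjustment. Igf2bp2, Irs1 and Igfals again led those higher, and the 1 lower was Igf1r, at 61.2 and 30.4 CPM after resveratrol against 228 CPM in control. Igfbp3 and Igfbp2 came next by p and did not pass, with log2 differences of -0.52 (SE 0.346) and -0.92 (SE 2.58).

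The genes whose profile over the 5 libraries lay nearest to that of Mest were Paqr9, Lctl, Marc1, Itgax and Pnpla3, among 14153 named genes with a mean of at least 1 CPM. Their root mean square difference from Mest, in log2(CPM + 0.5) after centring each gene, ran from 0.31 for Paqr9 to 0.54 for Pnpla3. Paqr9, a receptor family gene, was at 9.72 and 199 CPM after resveratrol, 257 and 298 CPM in the obesity pair and 1.71 CPM in control. Pnpla3, a lipid hydrolase gene, was at 15.4 and 204 CPM, 186 and 246 CPM, and 2.37 CPM. No other member came as near to Mest, the nearest being Peg3 at 1.15. Plagl1 and Grb10 were each other's nearest member at 0.36, and Grb10 was also nearest to Meg3 at 0.38. These distances describe 5 libraries, of which control and resveratrol library 1 differ most from the rest, and carry no test.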

How the data were processed

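Poly-A RNA of 5 visceral fat libraries was sequenced as paired-end reads from a stranded kit, per the labels' protocols. The deposited values are raw counts per Ensembl gene, as whole numbers. FastQC, featureCounts and GRCm39 are named in the submitters' processing notes; aligner, annotation, strandedness of counting and versions were not given in the sources used here. Of 78334 identifiers, 65.7% had a symbol in the GENCODE M21 table, and promoter windows came from RefSeq GRCm38.p6.

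Counts were fitted in R 4.3.3 with edgeR 4.0.16. Low genes were removed by filterByExpr, which kept 24779. Its settings were 10 counts in as many libraries as the smallest group holds, here 1 library of any group, and 15 in total. TMM scaling and the robust quasi-likelihood test on the 5 libraries together followed, with Benjamini-Hochberg adjustment over all genes tested at 0.05. The 1 control library is taken to have the spread of the others. The SE is the log2 difference over the square root of F. The biological coefficient of variation was 62.2%. The lowest and highest values of 3 counts per library were 0.105 and 0.157 CPM. The alternatives tried were DESeq2 1.42.0, limma-voom (limma 3.58.1), median-ratio size factors, dropping or tightening the filter, a non-robust fit, fitting each pair of groups alone, blocking on replicate number and leaving out each library. Members and lists were chosen with earlier results of these data known. The rule for genes named was the 10 members, then per list, comparison and direction those past the threshold or else up to 3 with the smallest p and a mean of at least 1 CPM, and the 5 genes nearest to Mest. Figures used Python 3.11.15 and matplotlib 3.10.9.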

Additional observations from a re-analysis of the deposited data

How the results depend on the processing

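The direction of the member differences in obesity against control was the same under all alternatives run. In resveratrol against obesity limma-voom turned Peg3 to -0.93, Nnat to -0.20 and Plagl1 to -0.19 on the log2 scale. The fit with a replicate block turned the same 3 to -0.93, -0.19 and -0.20, and it called 0 members and 0 genes in each comparison. Without a change of sign, limma-voom moved Mest to -2.38 and Meg3 to -0.71 and the replicate block moved them to -2.37 and -0.71, against -0.79 and -0.36. Same-numbered obesity and resveratrol libraries deviated from their group means with a correlation of 0.299 across 24779 genes, which are not independent, and with 2 pairs and no label on it the numbers are not taken to pair mice. The cause of these turns was not tested.

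Counts of calls moved most. Without a filter edgeR called 2575 genes in obesity against control, 25 for resveratrol over obesity and 1671 for resveratrol over control, and 0 members in each. DESeq2 called 4524, 219 and 3085 genes, with 5, 0 and 4 members, and limma-voom 80 genes in resveratrol against control. With only the groups compared, edgeR called 9269 genes and 7 members in obesity against control. Leaving out 1 library gave 0 to 9227 genes and 0 to 7 members in obesity against control, 0 to 4758 genes and 0 to 5 members in resveratrol against obesity, and 0 to 7469 genes and 0 to 7 members in resveratrol against control. For the fit of only the groups compared and those without 1 library, the number of genes tested is not given. Whether members were called more often there than other genes can therefore not be read from these counts. A group left with 1 library is taken to vary like the other groups. In resveratrol against obesity these fits moved the log2 difference of Mest from -4.97 to 0.19, Peg3 from -2.86 to 0.91, Nnat from -1.39 to 0.98, H19 from -3.50 to 0.68, Plagl1 from -1.15 to 0.69, Cdkn1c from -0.16 to 0.54, Meg3 from -1.80 to 0.35 and Grb10 from -1.62 to -0.08, and that of H19 in resveratrol against control from -1.01 to 1.97. In obesity against control H19 ran from 0.46 to 3.31. Dlk1 in resveratrol against obesity stayed between 1.15 and 1.82. Depth limits Igf2, H19 and Dlk1, which had 3 to 79 counts per library.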

Other observations

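Other imprinted genes, chosen after their values were seen, are given here as values. Peg10, a gene derived from a retrotransposon and next to Sgce, was at 16.7 and 36.9 CPM after resveratrol, 27.8 and 30.8 CPM in the obesity pair and 0.837 CPM in control. Snrpn, which encodes a splicing protein, kept a narrow range, at 27.0 and 27.7 CPM after resveratrol, 27.4 and 22.3 CPM in the obesity pair and 19.3 CPM in control. Gnas, the gene for the stimulatory G protein subunit, was at 1251 and 1066 CPM, 1078 and 1154 CPM, and 1394 CPM. Slc38a4, an amino acid transporter gene, was at 3.27 and 0.311 CPM after resveratrol, 0.835 and 1.43 CPM in the obesity pair and 26.5 CPM in control, its highest level.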
